A study of Homo sapiens with 30 samples.

Results

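The genes described here are 10 targets of the transcription factor NF-κB: the cytokines IL6, IL11, and LIF, the chemokines CXCL1, CXCL2, CXCL3, CXCL8, and CCL2, and the 2 feedback inhibitors NFKBIA and TNFAIP3. They were taken by symbol, and all 10 were among the 26228 genes of the FPKM table, whose values are scaled to transcript length and to the mapped fragments of each library. RNA-Seq was done on SH-EP, an established human neuroblastoma (NB) cell line of mesenchymal type without MYCN amplification, and on 4 stable lines made from it by retroviral transfer of MYCN under an exogenous promoter. These lines carry WT MYCN or the phosphorylation-site mutants T58A, S62A, or T58A S62A, so that the parental line is the control for the transgene and has none. Cells of all 5 lines received either the vehicle DMSO or CYC065 (fadraciclib), an inhibitor of CDK9 and CDK2, at 1 μM, and were collected after 6 hours. There were 3 libraries per line and treatment, 30 in all. Nothing in the labels says that the 3 libraries came from separate cultures, so p-values measure the spread between libraries, which may be technical. Each line is a single stable culture, and each of the 6 SH-EP libraries shares its index sequence with a library of a MYCN line, so the library pool and the line cannot be told apart.

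NF-κB dimers are held in the cytoplasm by inhibitors of the IκB family. Signals from receptors for TNF, IL-1, and microbial products activate the IκB kinases, the inhibitors are degraded, and the dimers bind κB sites in promoters and enhancers. Among the genes they induce are their own inhibitors. NFKBIA encodes IκBα, which takes NF-κB off DNA and out of the nucleus, and TNFAIP3 encodes A20, a ubiquitin-editing enzyme that shuts off signalling upstream of the kinases. CXCL1, CXCL2, CXCL3, and CXCL8 (interleukin 8) attract neutrophils through the receptors CXCR1 and CXCR2, and CCL2 attracts monocytes through CCR2. IL6, IL11, and LIF signal through the shared receptor chain gp130 to JAK kinases and STAT3. Many of these mRNAs are short-lived because proteins bind AU-rich elements in their 3′ UTRs. CDK9 is the kinase of P-TEFb, which releases paused RNA polymerase II into elongation.

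The κB-like sites near the start of transcription are shown first, because they are the feature by which most of these genes are known as NF-κB targets. RefSeq promoter windows of 300 bases (250 before to 50 after the start, GRCh38.p14) were found for 8 of the 10 genes, and LIF and CCL2 had no entry. Each line gives 41 bases on the gene's own strand, with 1 match to GGNNNTTCC, read on either strand, in capitals. The first capital lies 72 bases before the start in IL6, 78 in CXCL1 and CXCL3, 77 in CXCL2, 91 in CXCL8, 81 in NFKBIA, and 67 in TNFAIP3. A second match, not in capitals here, began 53 bases before the start in CXCL1, CXCL2, and CXCL3, 55 in TNFAIP3, and 242 in NFKBIA.
IL6, chr7:22727112-22727152, plus strand: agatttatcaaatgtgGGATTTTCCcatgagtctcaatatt
CXCL1, chr4:73869299-73869339, plus strand: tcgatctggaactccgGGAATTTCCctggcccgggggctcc
CXCL2, chr4:74099248-74099288, minus strand: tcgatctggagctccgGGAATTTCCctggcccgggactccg
CXCL3, chr4:74038743-74038783, minus strand: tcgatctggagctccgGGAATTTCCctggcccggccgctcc
CXCL8, chr4:73740462-73740502, plus strand: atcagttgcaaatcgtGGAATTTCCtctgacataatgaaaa
NFKBIA, chr14:35404806-35404846, minus strand: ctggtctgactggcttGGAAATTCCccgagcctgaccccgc
TNFAIP3, chr6:137867176-137867216, plus strand: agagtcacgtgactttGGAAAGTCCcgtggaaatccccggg
The κB consensus, searched by its usual degenerate form on both strands, matched 6 of the 8 windows (IL6, CXCL1, CXCL2, CXCL3, NFKBIA, and TNFAIP3), against 5.72% of 27305 promoters of the same length. The exact letters GGAATTTCC, which can lie inside a consensus match, were in 5 of the 8 (CXCL1, CXCL2, CXCL3, CXCL8, and NFKBIA), against 0.472% of promoters. The looser GGNNNTTCC, which overlaps both, was in 7 of the 8, against 20.1%. The last 2 patterns were chosen after the windows had been seen. The AP-1 pattern TGANTCA was in CXCL8 and IL11, against 7.76% of promoters. A match is a run of letters and not evidence of binding.

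CXCL8 and IL11 are printed at more length because their mRNAs moved in opposite directions with CYC065, as described below. Both lines give the 150 bases before the start, with TGANTCA and GGNNNTTCC matches in capitals.
CXCL8, chr4:73740419-73740568, plus strand: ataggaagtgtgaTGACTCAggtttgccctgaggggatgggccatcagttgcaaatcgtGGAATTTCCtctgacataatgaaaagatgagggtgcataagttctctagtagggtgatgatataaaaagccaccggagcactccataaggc
IL11, chr19:55370464-55370613, minus strand: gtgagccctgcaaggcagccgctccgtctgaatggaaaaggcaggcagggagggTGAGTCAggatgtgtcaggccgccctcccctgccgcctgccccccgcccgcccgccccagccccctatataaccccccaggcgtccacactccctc
The IL11 window held the AP-1 letters and no GGNNNTTCC, whereas that of CXCL8 held both. IL11 fell as most tested genes did, and the part of these letters in either change was not tested.

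AU-rich elements in the 3′ UTR varied among the members. In the GENCODE transcripts (release 44 lifted to GRCh37), all 10 had at least 1 ATTTA in the 3′ UTR, as did 74.4% of the tested genes, with a median of 6.59 per kb against 1.79. The nonamer TTATTTATT was in 7 of the 10 and in 9.75% of tested genes. The richest stretches of 30 bases of 3 members with repeated ATTTA are shown, with ATTTA in capitals.
CXCL2, chr4:74963307-74963336, GRCh37, minus strand: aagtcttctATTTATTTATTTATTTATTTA
CXCL8, chr4:74608825-74608854, GRCh37, plus strand: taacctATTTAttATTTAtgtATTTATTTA
IL11, chr19:55877319-55877348, GRCh37, minus strand: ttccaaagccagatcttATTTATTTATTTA
CXCL2 had 10 ATTTA in 716 bases of 3′ UTR, CXCL8 had 9 in 1252, and IL11 had 9 in 1625. Per kb, IL6 (14.1) and CXCL2 (13.97) had the most, and LIF (2.19), TNFAIP3 (2.51), and CCL2 (2.66) were near the tested median.

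All 10 are protein coding and, TNFAIP3 apart, short. Their GRCh37 spans ran from 1916 bases (CXCL1, chr4:74735110-74737025) to 16101 bases (TNFAIP3, chr6:138188351-138204451), with a median of 3434.5 against 31716 for the tested genes. Of the 10, 9 were under 10000 bases, against 20.6% of tested genes. CXCL8 (chr4:74606236-74609433), CXCL1, CXCL3 (chr4:74902306-74904524), and CXCL2 (chr4:74962757-74964913) lie within 1 cluster on chromosome 4. The others are IL6 (chr7:22765503-22771621), IL11 (chr19:55875750-55881831), LIF (chr22:30636442-30642748), CCL2 (chr17:32582293-32584227), and NFKBIA (chr14:35870285-35873955). Over all tested genes, the median log2 change with CYC065, averaged over lines, was -0.96 in the lowest quartile of span and -1.35 in the highest. The part of gene length in the members' values was not tested. The coding sequences of CXCL1 and CXCL2 were 93.5% identical, those of CXCL1 and CXCL3 90.7%, and those of CXCL2 and CXCL3 94.4%. How the authors' counting divided reads among these 3 genes is not stated, so the value of each is uncertain. CXCL2 and CXCL8 shared 52.9%.

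The transgene fitted the labels. MYCN was at 0 FPKM in all 6 SH-EP libraries, and its group means in DMSO were 5.72 to 13.5 FPKM in the 4 other lines. Of the mesenchymal markers, VIM, PRRX1, SNAI2, FN1, and CD44 were all expressed in every group, with FN1 at 303 FPKM in SH-EP and 28.3 to 52.1 in the MYCN lines (means in DMSO). Of the adrenergic markers, PHOX2A was at 0 in every group and DBH had no group mean above 0.00999 FPKM, whereas TH reached 0.776 and ISL1 1.39. Of the leukocyte markers, PTPRC, LYZ, and CD3E had no group mean above 0.120 FPKM, CD79A and CD14 reached 0.529 and 0.963, and CD68 reached 35.4. Against SH-EP in DMSO, the 6 markers that were tested (VIM, CD44, FN1, PRRX1, SNAI2, and CD68) were lower in all 4 MYCN lines as deposited, and their part in the members' values was not tested. Relative depth, read from steps in the low values, was 0.483 to 1 in DMSO and 0.297 to 0.555 with CYC065, and its part was not tested either. The share of genes listed at 0 was 40.6% to 45.8% per library, and a 0 in such a table can be a failed estimate. Comparisons of lines use the FPKM as deposited. Those of CYC065 use a spike-in scale, on which synthetic ERCC RNAs added by cell number set each library's level, so that a change is per cell. On that scale the median of the 11575 tested genes moved with CYC065 by -1.06 on the log2 scale in SH-EP, -1.57 in WT, -1.08 in T58A, -0.97 in T58A S62A, and -1.35 in S62A. On FPKM as deposited it moved by 0.06 to 0.15. In bulk RNA, fewer expressing cells and less RNA per cell cannot be told apart.

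In DMSO, the members covered a wide range. NFKBIA was at 21.0, 21.9, and 22.7 FPKM in SH-EP, and reached 51.0 in T58A. CXCL8 followed at 2.85 to 14.3 FPKM over all DMSO libraries, then LIF at 2.82 to 7.34 and IL11 at 1.85 to 5.45. CXCL2, at 0.211 to 2.44 FPKM, and IL6, at 0 to 1.77, overlapped. TNFAIP3, at 0.254 to 1.27 FPKM, CCL2, at 0 to 1.26, and CXCL3, at 0 to 1.06, overlapped with both. CXCL1 did not exceed 0.293 FPKM in DMSO, was listed at 0 in 13 of the 30 libraries, and averaged 0.303 FPKM over all libraries. It therefore fell under the filter of a mean of at least 1 FPKM, and 9 of the 10 members were tested. Of these 9, IL11, LIF, CXCL2, CXCL8, and NFKBIA also averaged at least 1 FPKM over the DMSO libraries, whereas IL6, CXCL3, CCL2, and TNFAIP3 passed through their CYC065 libraries. A count of higher genes over the 9 is therefore a description and no support for a direction.

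**Figure D1:**
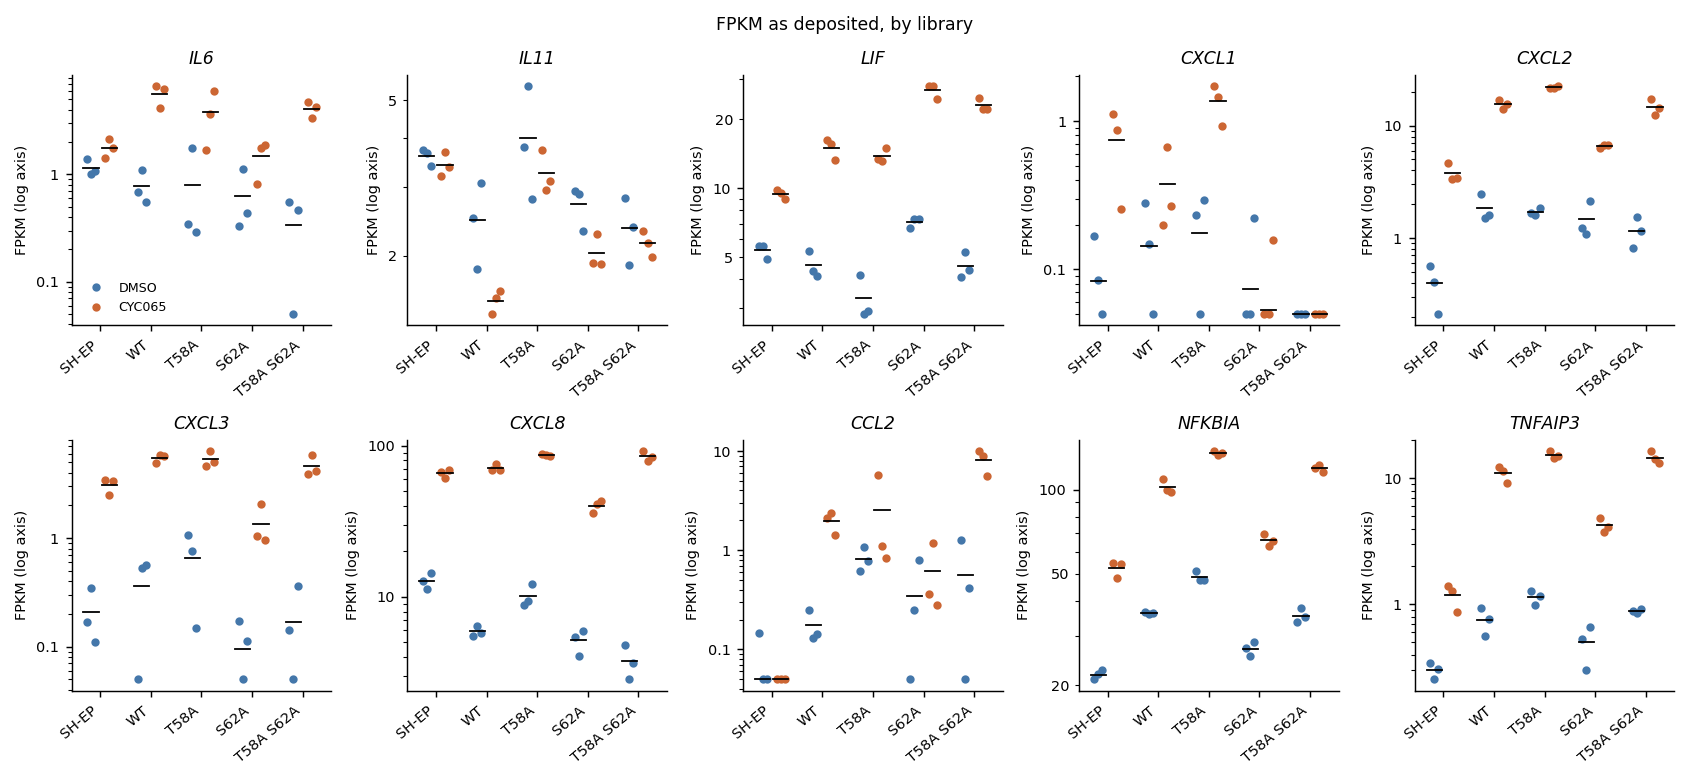
FPKM as deposited of the 10 genes (log axis), with 1 point per library, DMSO in blue and CYC065 in orange, and black bars at the group means. Values listed at 0 are drawn at the floor of 0.05. In each of the 5 lines the CYC065 libraries of LIF, CXCL2, CXCL3, CXCL8, NFKBIA, and TNFAIP3 lay above all DMSO libraries of the same line. IL11 stayed between 1.42 and 5.45 FPKM throughout. On this scale 37% to 42.7% of all tested genes were called higher with CYC065 by limma, which is another measure than non-overlap. The share of all tested genes without overlap on this scale is not given here.

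The first question was whether MYCN in SH-EP cells went with another basal level of NF-κB targets. Against SH-EP in DMSO, CXCL2, NFKBIA, and TNFAIP3 were higher in all 4 MYCN lines, and CXCL8 was lower in WT, S62A, and T58A S62A, on FPKM as deposited. CXCL2 was at 0.564, 0.409, and 0.211 FPKM in the 3 SH-EP libraries. It was at 2.44, 1.51, and 1.61 in WT, 1.68, 1.59, and 1.84 in T58A, 1.22, 1.09, and 2.14 in S62A, and 0.817, 1.53, and 1.14 in T58A S62A. None of these 12 libraries overlapped with SH-EP. Of all tested genes, 35.4% to 37.7% per MYCN line had every library above every SH-EP library. The log2 changes of CXCL2 were 2.02 ± 0.25 (SE; limma adjusted p = 2.21e-07) in WT, 1.93 in T58A, 1.38 in T58A S62A, and 1.69 in S62A.

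TNFAIP3 (A20) was at 0.341, 0.254, and 0.306 FPKM in SH-EP and at 0.936, 0.56, and 0.768 in WT. It was at 1.27, 0.997, and 1.16 in T58A and at 0.879, 0.85, and 0.918 in T58A S62A. In S62A, at 0.527, 0.304, and 0.668 FPKM, 1 library overlapped with SH-EP. The log2 changes were 1.08 ± 0.20 (SE, adjusted p = 8.3e-05) in WT, 1.64 in T58A, 1.30 in T58A S62A, and 0.54 ± 0.20 (adjusted p = 0.0278) in S62A. The call in S62A was lost without 1 of 4 libraries, 2 of S62A and 2 of SH-EP (0.34 to 0.55, adjusted p of 0.0513 to 0.192). NFKBIA (IκBα) had a narrower spread, at 36.5, 35.8, and 36.2 FPKM in WT, 51.0, 47.4, and 47.4 in T58A, 27.2, 25.5, and 28.5 in S62A, and 33.5, 37.7, and 35.0 in T58A S62A. Every MYCN library lay above the SH-EP range of 21.0 to 22.7. Libraries lay wholly above those of SH-EP for 35.4% to 37.7% of all tested genes per line. The log2 changes of NFKBIA were 0.72 ± 0.06 (adjusted p = 1.05e-10) in WT, 1.15 in T58A, 0.69 in T58A S62A, and 0.31 in S62A.

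CXCL8 went the other way. It was at 12.8, 11.2, and 14.3 FPKM in SH-EP, and at 5.51, 6.45, and 5.77 in WT, 5.43, 4.09, and 5.92 in S62A, and 4.80, 2.85, and 3.66 in T58A S62A, with no overlap. Of all tested genes, 27.7% to 29.7% lay wholly below SH-EP in these lines. The log2 changes of CXCL8 were -1.10 ± 0.15 (SE, adjusted p = 9.39e-07), -1.31, and -1.76, respectively. In T58A, at 8.80, 9.43, and 12.2 FPKM, the libraries overlapped with SH-EP, and the change of -0.34 ± 0.15 did not pass the test (adjusted p = 0.057).

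Of the gp130 cytokines, IL11 was lower in WT (log2 change -0.55, adjusted p = 0.0159) and T58A S62A (-0.61, adjusted p = 0.00864). Without the WT library at 1.85 FPKM the first was -0.37 (adjusted p = 0.128), and without the T58A S62A library at 1.89 FPKM the second was -0.47 (adjusted p = 0.0612). LIF was lower in T58A (-0.70, adjusted p = 3.46e-05) and higher in S62A (0.40, adjusted p = 0.00765). IL6 was lower in T58A S62A, where its libraries were at 0.556, 0, and 0.466 FPKM against 1.40, 1.00, and 1.08 in SH-EP (log2 change -1.90, adjusted p = 0.0102). Without the T58A S62A library listed at 0, the value was -1.03 (adjusted p = 0.126). CCL2 was higher in T58A, at 0.62, 1.07, and 0.781 FPKM, than in SH-EP, where 2 of 3 libraries were listed at 0 and the third was at 0.148 (log2 change 2.74, adjusted p = 0.00521). With a pseudocount of 1 it was 0.79 (adjusted p = 0.06). CXCL3 did not pass the test in any of the 4 lines.

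Counted over the 9 tested members, 3 were higher and 2 lower in WT, 4 and 1 in T58A, 4 and 1 in S62A, and 3 and 3 in T58A S62A. The share of all tested genes called higher was 31.6% in WT, 30.9% in T58A, 31.2% in T58A S62A, and 31% in S62A, and lower, 22.6%, 23.3%, 24.1%, and 23.4% in the same order. The members' counts are thus near the background. These comparisons share the SH-EP libraries.

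The direction depends on the scale for some of these genes. With spike-in scaling, the median of all tested genes moved by -1.16 in WT, -0.88 in T58A, -0.75 in T58A S62A, and -1.86 in S62A relative to SH-EP. NFKBIA then read -0.53 in WT (adjusted p = 0.00907), -1.64 in S62A, and -0.14 in T58A S62A, against 0.20 in T58A. TNFAIP3 read -1.09 in S62A and 0.05 in WT, and CXCL2 0.00 in S62A. LIF turned to -1.53 in S62A. CXCL8 stayed lower, and CXCL2 stayed higher in WT, T58A, and T58A S62A.

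**Figure D2:**
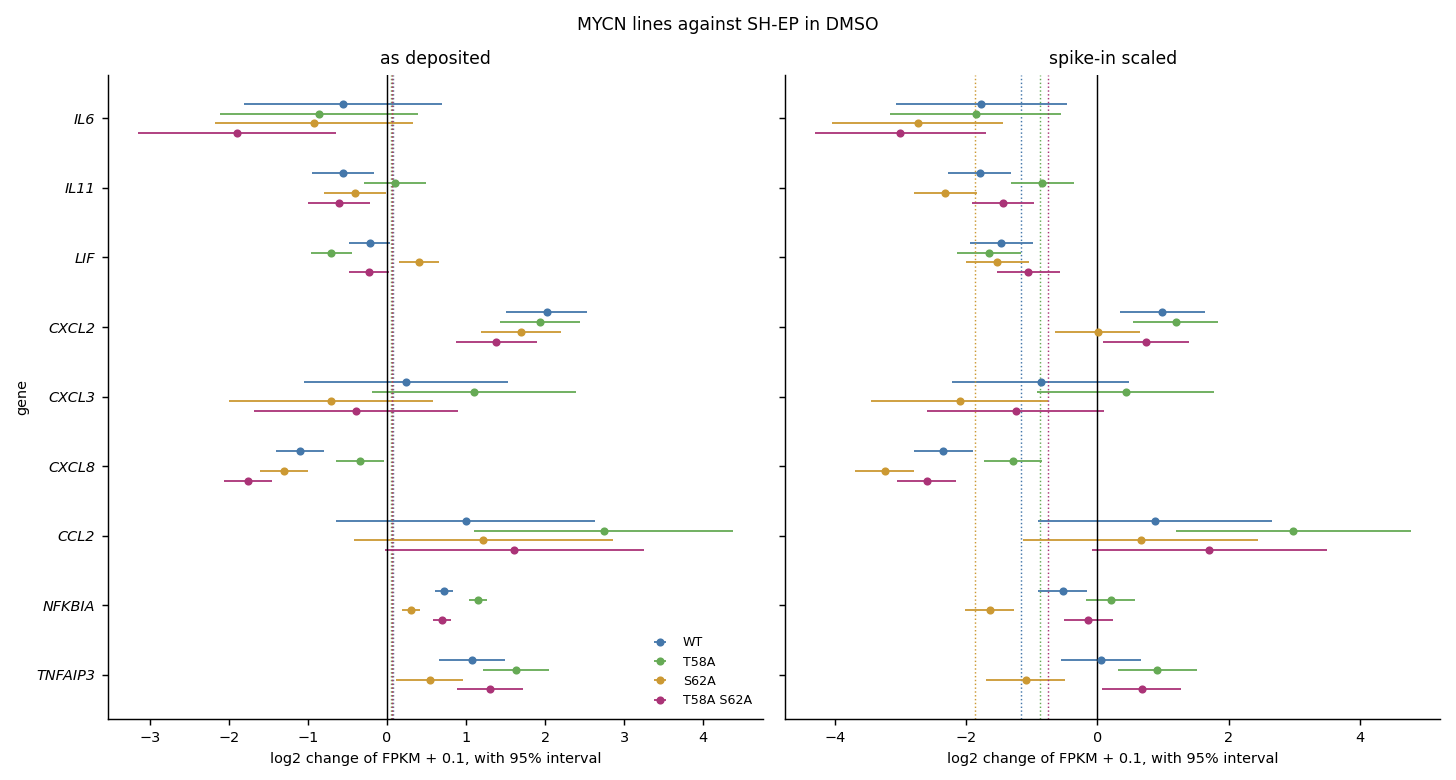
Log2 change of FPKM + 0.1 in the 4 MYCN lines against SH-EP in DMSO, with 95% intervals from limma, for the 9 tested members, as deposited (left) and spike-in scaled (right). Dotted lines mark the median of all tested genes in each line, near 0 as deposited and at -0.75 to -1.86 after spike-in scaling.

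Among the MYCN lines, the question was whether the phosphorylation-site mutants differ from WT. T58A had higher CXCL8 than WT (log2 change 0.76, adjusted p = 0.000519), IL11 (0.66, adjusted p = 0.0129), TNFAIP3 (0.56, adjusted p = 0.0475), and NFKBIA (0.42, adjusted p = 5.65e-06), and lower LIF (-0.48, adjusted p = 0.00558). IL11 did not pass without the T58A library at 5.45 FPKM (0.42, adjusted p = 0.12) or without the WT library at 1.85 (0.47, adjusted p = 0.101). Nor did TNFAIP3 without 1 of 4 libraries, 2 of WT and 2 of T58A (0.39 to 0.58, adjusted p of 0.0744 to 0.236). With spike-in scaling, LIF read -0.19 and TNFAIP3 0.86 (adjusted p of 0.609 and 0.0652), and neither passed. S62A had higher LIF as deposited (0.62, adjusted p = 0.000579), at 6.72, 7.31, and 7.34 FPKM against 5.33, 4.36, and 4.15, and lower NFKBIA (-0.42, adjusted p = 5.34e-06). With spike-in scaling LIF turned to -0.06 (adjusted p = 0.814). T58A S62A had lower CXCL8 (-0.66, adjusted p = 0.00168), which did not pass with spike-in scaling (-0.25, adjusted p = 0.352) or in a fit of the 2 groups alone (adjusted p = 0.108). Thus 5, 2, and 1 of the 9 tested members were called, while 23.6%, 24.1%, and 23.7% of all tested genes were. CXCL2 and CCL2 did not pass in any of these 3 comparisons.

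The next question was what a CDK9/2 inhibitor does to these inducible mRNAs. Per cell, CXCL2, CXCL3, CXCL8, and TNFAIP3 were called higher with CYC065 in all 5 lines, while most other genes fell. The calls of CXCL2 in S62A, CXCL3 in T58A and S62A, and TNFAIP3 in SH-EP were lost in fits without 1 library, as described below. IL11 fell in all 5 lines. LIF rose in T58A and T58A S62A, and IL6, CCL2, and NFKBIA rose in T58A S62A. Of the 9 tested members, the number called higher was 4 in SH-EP, WT, and S62A, 5 in T58A, and 8 in T58A S62A, and 1 (IL11) was called lower in each. IL6, CXCL3, CCL2, and TNFAIP3 passed the filter through their CYC065 libraries, so these counts are descriptions and no support for a direction. Of all tested genes, 0.907%, 0.769%, 1.25%, 0.968%, and 1.85% were called higher (SH-EP, the WT line, T58A, S62A, and T58A S62A in turn), and 75.7%, 93.7%, 84.2%, 90.2%, and 76.3% lower.

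The neutrophil chemokine CXCL8 reached the highest levels of the chemokines. On FPKM as deposited it was at 67.0, 61.3, and 69.7 with CYC065 in SH-EP, 69.4, 75.5, and 69.5 in WT, 88.2, 87.4, and 86.3 in T58A, 35.7, 41.4, and 43.0 in S62A, and 92.1, 78.9, and 84.9 in T58A S62A. Each of these values exceeded every DMSO library, the highest of which was 14.3 FPKM. On the spike-in scale, the log2 changes were 1.12 ± 0.22 (SE, adjusted p = 4.62e-05) in SH-EP, 1.90 ± 0.22 in WT, 1.92 in T58A, 1.45 in S62A, and 3.43 ± 0.22 (adjusted p = 6.57e-13) in T58A S62A. The last is 10.8-fold. Relative to the median of all genes, the changes were 2.18, 3.47, 3.0, 2.80, and 4.40. In SH-EP, 131 of the 11575 tested genes had a higher change, and in T58A S62A 100 did.

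CXCL2 was at 4.63, 3.38, and 3.43 FPKM with CYC065 in SH-EP, 17.0, 14.1, and 15.4 in WT, 21.7, 21.4, and 22.5 in T58A, 6.33, 6.68, and 6.76 in S62A, and 17.3, 12.5, and 14.4 in T58A S62A. As deposited, SH-EP was the lowest in DMSO and with CYC065, but on the spike-in scale S62A was the lowest with CYC065, at 1.74 to 2.01 against 4.01 to 6.59 in SH-EP. The spike-in scaled log2 changes of CXCL2 were 2.02 ± 0.32 in SH-EP (adjusted p = 2.29e-06), 1.37 in WT, 2.45 in T58A, and 2.56 in T58A S62A. The change in S62A, 0.66 ± 0.32, was at the threshold (adjusted p = 0.0499), and it did not pass when any of 5 of the 6 S62A libraries was left out (0.56 to 0.73, adjusted p of 0.0636 to 0.14). CXCL3 was at 2.52 to 3.41 FPKM with CYC065 in SH-EP, 4.87 to 5.78 in WT, 4.61 to 6.32 in T58A, 0.971 to 2.04 in S62A, and 3.92 to 5.86 in T58A S62A, and at 0 to 1.06 in DMSO. Its changes were 2.58 ± 0.66, 2.61, 2.04, 1.53, and 3.74 in the same order. The change in S62A had an adjusted p of 0.0308, which rose to 0.131 without the S62A DMSO library listed at 0 (1.17) and to 0.0999 without the CYC065 library at 2.04 FPKM (1.32). In T58A it rose to 0.0682 without the DMSO library at 0.149 FPKM (1.40). CXCL1 is described by its levels alone. It was at 1.12, 0.875, and 0.254 FPKM with CYC065 in SH-EP, 0.199, 0.669, and 0.268 in WT, and 1.73, 1.45, and 0.933 in T58A. It was listed at 0 in 2 of 3 S62A libraries and in all 6 libraries of T58A S62A, the line in which CXCL2, CXCL3, and CXCL8 had their highest log2 changes.

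The monocyte chemokine CCL2 had another pattern across lines. It was listed at 0 in all 3 SH-EP libraries with CYC065, and at 9.95, 8.97, and 5.64 FPKM in T58A S62A, where the DMSO libraries were at 1.26, 0, and 0.421. The spike-in scaled log2 change in T58A S62A was 3.55 ± 0.87 (adjusted p = 0.000688). In WT it was at 2.13, 2.38, and 1.43 FPKM against 0.25, 0.132, and 0.142, with no overlap, but the per-cell change did not pass the test (adjusted p = 0.111). The spike-in scaled WT libraries did not overlap either. Of all tested genes in WT, 0.717% had every scaled CYC065 library above every DMSO library. CCL2 passed the filter through its CYC065 libraries, so this is a description. In T58A, 1 library with CYC065 was at 5.76 FPKM and the other two at 1.11 and 0.829, close to DMSO. In S62A the groups overlapped.

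**Figure D3:**
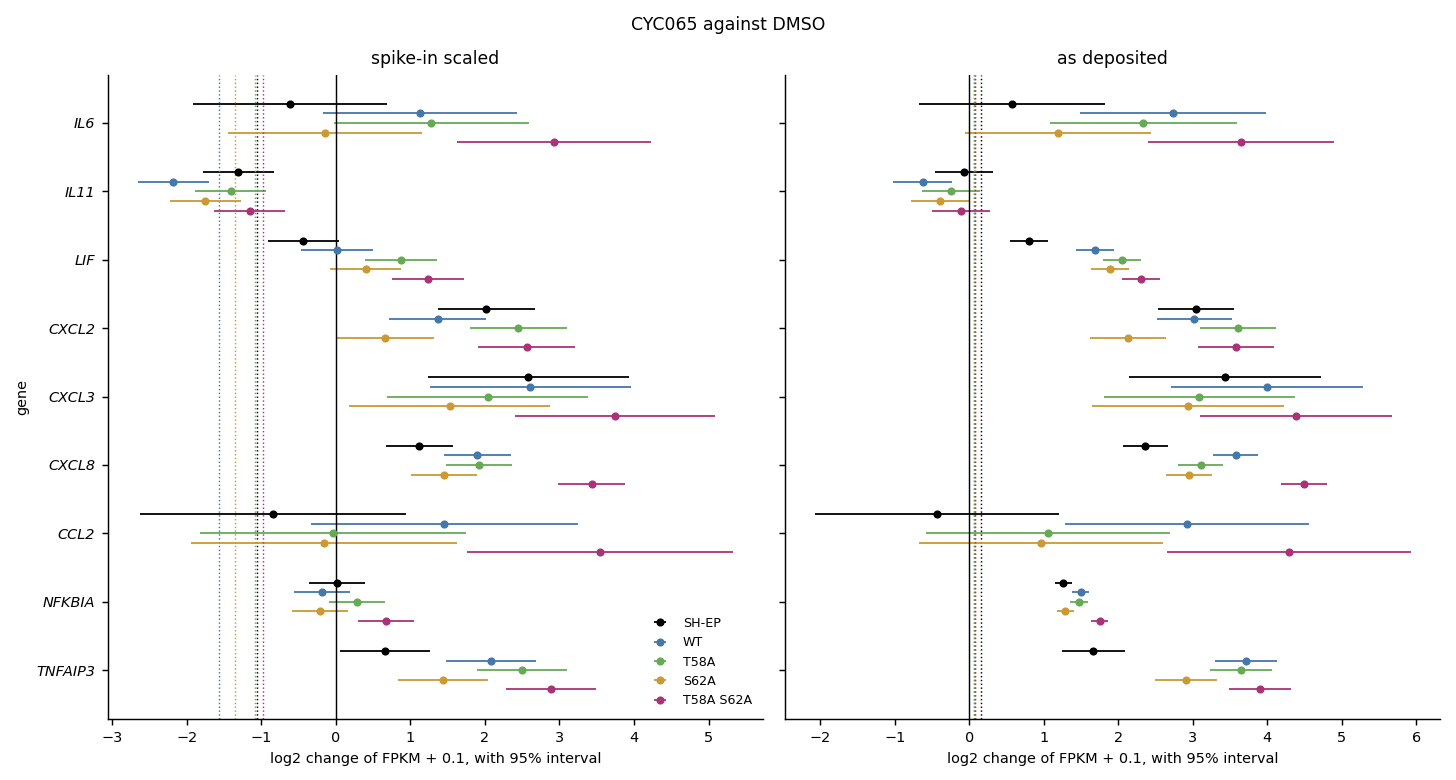
Log2 change of FPKM + 0.1 with CYC065 against DMSO, with 95% intervals from limma, for the 9 tested members in 5 lines, spike-in scaled (left) and as deposited (right). Dotted lines mark the median of all tested genes in each line, between -0.97 and -1.57 on the left and 0.06 to 0.15 on the right. IL11 lay near those medians, and CXCL8 lay 2.18 to 4.40 above them on the left.

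Of the 2 feedback inhibitors, TNFAIP3 rose per cell in all 5 lines, and NFKBIA in 1. TNFAIP3 was at 1.40, 1.28, and 0.873 FPKM with CYC065 in SH-EP, and at 12.3, 11.5, and 9.25 in WT. It was at 16.4, 14.6, and 15.2 in T58A, 4.89, 3.79, and 4.13 in S62A, and 16.4, 14.2, and 13.2 in T58A S62A. Its spike-in scaled log2 changes were 2.09 ± 0.29 (SE, adjusted p = 2.89e-07) in WT, 2.50 in T58A, 2.89 in T58A S62A, and 1.44 in S62A. In SH-EP the change was 0.66 ± 0.29 (adjusted p = 0.0445), and the scaled libraries overlapped. It did not pass without 1 of 4 SH-EP libraries (0.49 to 0.70, adjusted p of 0.0649 to 0.172).

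NFKBIA, the most abundant member, was at 54.8, 48.4, and 54.3 FPKM with CYC065 in SH-EP, 108.7, 99.6, and 98.4 in WT, 137, 133, and 135 in T58A, 69.6, 63.0, and 65.8 in S62A, and 119.7, 121.9, and 115.5 in T58A S62A. As deposited, these are all above the DMSO libraries of the same line, with log2 changes of 1.26 to 1.75. On that scale 37% to 42.7% of all tested genes were called higher by limma, and the share without overlap is not given here. Per cell, the groups overlapped in SH-EP, WT, T58A, and S62A, with log2 changes of 0.01, -0.19, 0.28, and -0.21 (SE 0.18 each, adjusted p of 0.149 to 0.965). In T58A S62A, the change was 0.67 (adjusted p = 0.00181). NFKBIA lay 1.07 to 1.64 above the median of all tested genes in the 5 lines. Between 95.1% and 97.4% of tested genes had a lower change than NFKBIA.

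**Figure D4:**
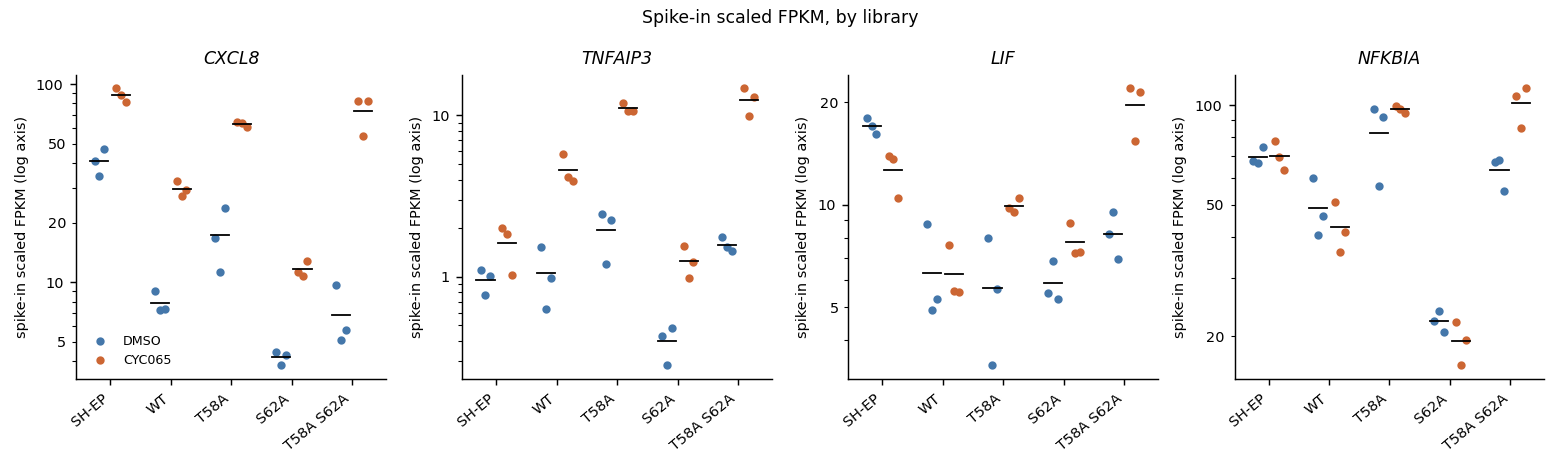
Spike-in scaled FPKM (log axis) of CXCL8, TNFAIP3, LIF, and NFKBIA, with 1 point per library, DMSO in blue and CYC065 in orange, and black bars at the group means. CXCL8 libraries with CYC065 lay above those with DMSO in all 5 lines, while those of NFKBIA overlapped with DMSO in 4 of 5. Of all tested genes, 0.717% to 1.78% per line had every CYC065 library above every DMSO library.

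The gp130 cytokines differed from each other. LIF was at 9.77, 9.50, and 8.98 FPKM with CYC065 in SH-EP, 16.2, 15.5, and 13.2 in WT, 13.4, 13.1, and 15 in T58A, 27.9, 27.8, and 24.5 in S62A, and 24.7, 22.1, and 22.1 in T58A S62A. Per cell, it rose in T58A (log2 change 0.88 ± 0.23, adjusted p = 0.00137) and T58A S62A (1.24, adjusted p = 3.58e-05). The changes were 0.02 in WT, 0.40 in S62A (adjusted p = 0.108), and -0.43 in SH-EP (adjusted p = 0.0924), where every scaled CYC065 library lay below every DMSO library. That was so for 86.8% of all tested genes in SH-EP. In S62A, every scaled LIF library with CYC065 (7.23 to 8.82) lay above every DMSO library (5.30 to 6.85). The same held for 1.05% of all tested genes in S62A. IL6 was at 1.42, 2.15, and 1.75 FPKM with CYC065 in SH-EP, 6.68, 4.12, and 6.21 in WT, 1.70, 3.67, and 5.97 in T58A, 0.807, 1.76, and 1.88 in S62A, and 4.74, 3.37, and 4.22 in T58A S62A. Its per-cell change in T58A S62A was 2.93 ± 0.63 (adjusted p = 0.000185). In WT, the scaled libraries did not overlap, at 1.48 to 3.13 against 0.70 to 1.23, yet the change of 1.13 ± 0.63 did not pass the test (adjusted p = 0.0907). Of all tested genes in WT, 0.717% had every scaled CYC065 library above every DMSO library. In T58A, S62A, and SH-EP the changes were 1.28, -0.15, and -0.62, with overlapping libraries.

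IL11 was the member that fell per cell in every line. As deposited, it was at 3.19, 3.69, and 3.38 FPKM with CYC065 in SH-EP against 3.74, 3.68, and 3.40 in DMSO. In WT it was at 1.42, 1.56, and 1.62 against 2.49, 1.85, and 3.07. Per cell, the log2 changes were -1.31 ± 0.23 (adjusted p = 1.45e-05) in SH-EP, -2.18 in WT, -1.41 in T58A, -1.15 in T58A S62A, and -1.75 in S62A, with no overlap of the groups. These lay -0.18 to -0.61 from the median of all tested genes, so that between 27.1% and 42.1% of genes had a lower change than IL11. Non-overlap in the lower direction was found for 75.7% to 94.1% of all tested genes per line. As deposited, IL11 passed the test in WT alone, with a change of -0.63 (adjusted p = 0.00487).

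On FPKM as deposited, 6, 8, 7, 6, and 8 of the 9 tested members were called higher with CYC065 in SH-EP, the WT line, T58A, S62A, and T58A S62A in turn, and 1 was lower in WT. The background on that scale was 42.7%, 37%, 38.1%, 38.8%, and 38.6% higher, and 33.5%, 34.2%, 33.3%, 34.6%, and 34.2% lower. The members called higher as deposited in SH-EP and S62A included LIF and NFKBIA beside the 4 called per cell. These counts, too, include members that passed the filter through their CYC065 libraries, and are descriptions.

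The design also asks whether the response to CYC065 differed between MYCN lines and SH-EP, which the interaction term tests. In T58A S62A, 5 of the 9 tested members passed the test in the higher direction and 0 in the lower, against 5.21% and 0.199% of all tested genes. Among the 5, TNFAIP3, IL6, and CCL2 had passed the filter through their CYC065 libraries. The counts of members in this paragraph are therefore descriptions and no support for a direction. The 5 fell to 2 with spike-ins of at least 50 FPKM, and to 3 with no filter, a filter at 5 FPKM, or only the groups compared. As deposited, 5, 3, 3, and 6 members passed in WT, T58A, S62A, and the double mutant. The share of all tested genes passing as deposited is not given here. The shares in this paragraph are per cell and are no background for those counts. The 5 per-cell calls in T58A S62A were CXCL8 (difference of log2 changes 2.31 ± 0.31, adjusted p = 1.66e-05), TNFAIP3 (2.23 ± 0.42, adjusted p = 0.000909), LIF (1.67 ± 0.33, adjusted p = 0.00174), IL6 (3.55 ± 0.90, adjusted p = 0.0147), and CCL2 (4.39 ± 1.23, adjusted p = 0.0311). For CCL2, 5 of the 6 SH-EP libraries were listed at 0, and the call was lost without the remaining one (3.55, adjusted p = 0.127), without the T58A S62A DMSO library listed at 0 (3.11, adjusted p = 0.113), or without any of 5 CYC065 libraries (4.19 to 4.53, adjusted p of 0.0533 to 0.0859). In T58A, TNFAIP3 (1.84, adjusted p = 0.0121) and LIF (1.31, adjusted p = 0.0259) passed, against 2.28% of all tested genes called higher and 0.311% lower. LIF did not pass without 1 of 7 libraries (0.99 to 1.35, adjusted p of 0.0547 to 0.0918), nor TNFAIP3 without the SH-EP library at 0.873 FPKM (1.56, adjusted p = 0.0515). In WT, TNFAIP3 alone passed (1.43, adjusted p = 0.0341), against 1.89% higher and 16.3% lower, and not without 1 of 7 libraries (1.33 to 1.60, adjusted p of 0.0524 to 0.0836). In S62A, by limma, 0 members passed, against 3.08% higher and 1.87% lower. At an unadjusted p under 0.05 there were 2, LIF higher and CXCL2 lower. TNFAIP3 read 0.78 in S62A (adjusted p = 0.289) and CXCL8 0.33 (adjusted p = 0.504). CXCL8 did not pass in WT (0.78, adjusted p = 0.0656) or T58A (0.80, adjusted p = 0.217). CXCL2 ranged from -1.36 in S62A (adjusted p = 0.084) to 0.54 in T58A S62A, and NFKBIA from -0.22 to 0.66, without passing in any line. These 4 comparisons share the SH-EP libraries. Scaling factors of single libraries, from 0.26 to 3.28, enter every per-cell value.

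The other genes of the pathway are given by list, with no comparison against the members. Over all tested genes, 0.769% to 1.85% were called higher with CYC065 per cell and 75.7% to 93.7% lower, and as deposited 37% to 42.7% higher. Among the subunits and IκB proteins, 9 of 10 were tested. RELA, the main activating subunit, fell in all 5 lines with CYC065 (log2 changes -2.27 to -2.96), as did RELB (-1.73 to -2.92) and NFKBIE, which encodes IκBε (-1.47 to -2.51). NFKBIZ, a nuclear IκB protein that acts as a cofactor for IL6, rose in all 5 (0.55 to 1.05) and was the gene of this list called higher. Lower genes numbered 6 in SH-EP, 7 in WT and S62A, and 4 in T58A and T58A S62A. In DMSO, NFKBIB (IκBβ) and NFKBIE were higher in all 4 MYCN lines as deposited (0.74 to 1.25 and 0.56 to 1.48), and BCL3 was lower (-0.82 to -1.32). With spike-in scaling, NFKBIB and NFKBIE read below 0 in WT and S62A.

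Of the 32 genes of receptors, adaptors, and kinases upstream of NF-κB, 25 were tested, and TNF was the one called higher with CYC065, in all 5 lines. TNF, the cytokine that activates the pathway, was listed at 0 in all DMSO libraries of SH-EP and WT, so there its change could not be downward. It passed the filter with the help of its CYC065 libraries, and its call is a description and no support for a direction. With CYC065 its mean was 2.71 ± 0.366 FPKM (SD, n = 3) in SH-EP, 2.18 ± 0.487 in WT, 6.87 ± 1.10 in T58A, 5.26 ± 2.21 in T58A S62A, and 0.678 ± 0.346 in S62A. Its receptor TNFRSF1A fell by 4.62 to 5.44 on the log2 scale and the adaptor kinase RIPK1 by 3.96 to 4.99. Lower genes numbered 24 in SH-EP and WT and 23 in the other lines, and as deposited 11 to 14. In DMSO, the receptors IL1R1 (-1.36 to -1.79), IL1RAP (-0.97 to -1.12), and TLR3 (-1.32 to -3.82) were lower in all 4 MYCN lines.

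Of 9 other feedback genes, 8 were tested and 0 were called higher per cell by limma in any line, with 0 also at an unadjusted p under 0.05, which is near the background. As deposited, 2 to 4 of the 8 were called higher. N4BP1 (-3.68 to -4.54) and OTUD7B (-2.88 to -3.50) fell in all 5 lines, and RNF11, a partner of A20, lay between -0.20 and -0.92 and passed in WT, T58A, and S62A. TNIP1, which binds A20, was higher in all 4 MYCN lines in DMSO as deposited (0.50 to 0.75) and read -0.08 to -1.45 with spike-in scaling. TNIP2 was higher in WT and S62A as deposited (0.63 and 0.38) and lower in both with spike-in scaling (-0.62 and -1.56), and TAX1BP1 was lower in all 4 (-0.21 to -0.28).

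Of 28 further NF-κB targets, 16 were tested, and 4, 3, 3, 2, and 3 were called higher and 7, 9, 9, 10, and 5 lower with CYC065. IER3, an immediate early gene, rose by 3.44 to 6.83 and GADD45B, a stress-induced gene, by 0.62 to 1.60 in all 5 lines. CSF2, which encodes GM-CSF, rose in 4 (2.56 to 5.45) and read 0.97 in S62A without passing. In DMSO, IER3 was higher in all 4 MYCN lines (2.53 to 5.33) and VCAM1, a leukocyte adhesion molecule, was lower (-1.40 to -1.86). ICAM1, its relative, was higher in WT (2.86), T58A (5.58), and T58A S62A (2.39).

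Of the 20 cytokine receptors and JAK-STAT genes, 12 were tested, and 0 were called higher per cell by limma in any line, with 0 also at an unadjusted p under 0.05, again near the background. As deposited, 5 to 7 of the 12 were called higher. JAK2 fell by 2.02 to 2.60 and CLCF1, a gp130 cytokine, by 1.62 to 2.83, while STAT3 read -0.23 to -0.80 and passed in WT and S62A. In DMSO, the LIF receptor LIFR (-0.56 to -1.16), IL11RA (-0.69 to -2.61), and the cytokine CTF1 (-1.51 to -2.80) were lower in all 4 MYCN lines as deposited, so the receptor genes of LIF and IL11 were lower where MYCN was present.

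Of the 11 genes whose proteins bind or cut AU-rich or inflammatory mRNAs, all were tested. ZC3H12A, which encodes Regnase-1, an RNase for IL6 mRNA, rose in WT, T58A, S62A, and T58A S62A (0.83 to 1.72) and read 0.19 in SH-EP. TIAL1 fell by 1.64 to 2.60, and ZFP36L1 read -1.58 in SH-EP, where it fell, and -0.49 to 0.12 in the other lines. In DMSO, KHSRP and ELAVL1 (HuR) were higher in all 4 MYCN lines as deposited (0.35 to 0.54 and 0.38 to 0.55), and below 0 with spike-in scaling. ZC3H12A was higher in T58A, S62A, and T58A S62A as deposited (0.57 to 0.74), and read -0.26, -1.34, and -0.07 with spike-in scaling, where 0 genes of this list were called higher in the MYCN lines.

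**Figure D5:**
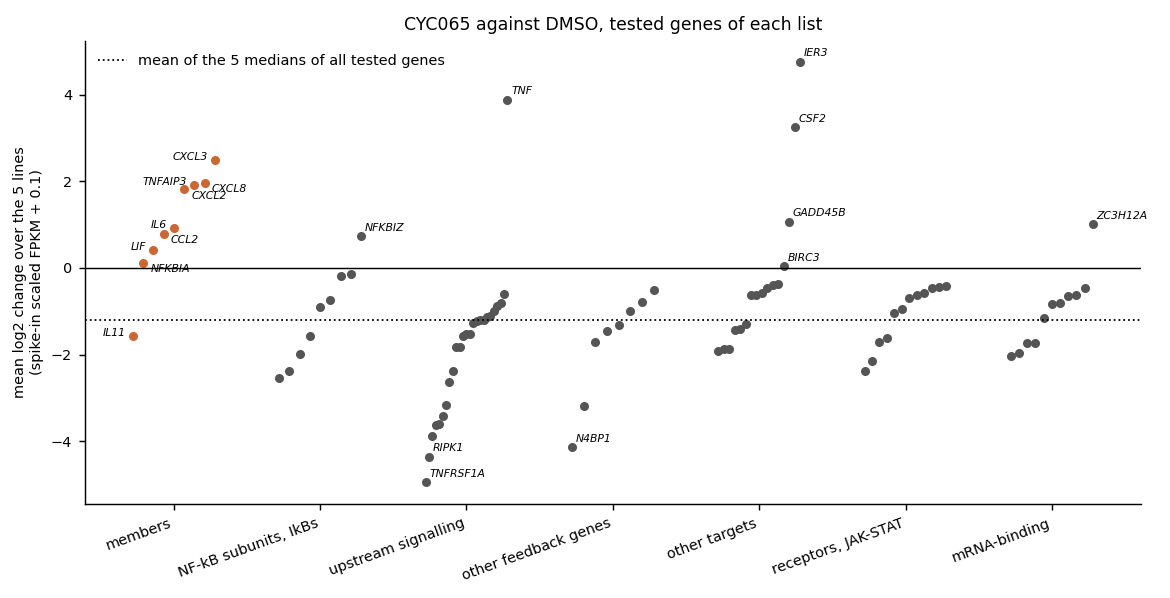
Mean log2 change of spike-in scaled FPKM + 0.1 with CYC065 over the 5 lines, with 1 point per tested gene, for the members (orange) and the 6 other lists (gray). The dotted line marks the mean of the 5 medians of all tested genes, -1.21. Points above 0 numbered 8 of 9 for the members, 1 of 9 for subunits and IκB genes, and 1 of 25 for upstream genes. They numbered 4 of 16 for other targets and 1 of 11 for mRNA-binding genes. Of other feedback genes it was 0 of 8, and of receptor and JAK-STAT genes 0 of 12. These numbers are descriptions and not a comparison, because IL6, CXCL3, CCL2, and TNFAIP3 passed the filter through their CYC065 libraries. The members and lists were also chosen with earlier results known.

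The levels of the members followed each other to different degrees over the 30 libraries, as deposited. These correlations are over libraries that share lines, treatment, and scale, and are descriptions. NFKBIA and TNFAIP3, the inhibitor pair, were each other's closest gene among all tested (Pearson's r = 0.978). NFKBIA was next followed by SCD (r = 0.972) and GLRX3 (r = 0.970), and TNFAIP3 by CXCL2 and TWISTNB (r = 0.958 for both). CXCL2 was closest to ELAVL1 (r = 0.968), then NFKBIA and ZBTB2 (r = 0.964 for both). CXCL8 was closest to SPRY4 (r = 0.972), HIST2H2BE (r = 0.965), and PRDM1 (r = 0.961). CXCL3 was closest to NFKB1, which encodes the NF-κB subunit p50 (r = 0.915), then to CXCL8 (r = 0.914) and CERS6 (r = 0.913). IL6 was closest to CXCL8 (r = 0.828), CD69 (r = 0.804), and CXCL3 (r = 0.800). LIF was closest to MIR22HG (r = 0.961), SLC30A1 (r = 0.951), and EAF1 (r = 0.949), none of them members. CCL2 was closest to TIFA (r = 0.882), BOP1 (r = 0.870), and CRY1 (r = 0.856), and IL11 to TRIM5 (r = 0.803), PSKH1 (r = 0.777), and ARHGEF40 (r = 0.768). IL11 was negatively correlated with each of the 8 other tested members (r of -0.182 to -0.505).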

How the data were processed

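RNA-Seq libraries were made from poly(A) RNA of SH-EP lines with ERCC spike-ins added by cell number. The authors aligned reads to hg19 with HISAT2 and deposited FPKM values from Cufflinks, and the gene annotation is not given in the sources used here. Labels number replicates and the table numbers columns differently, so columns were assigned to groups and not to single samples. The members and lists were chosen with earlier results of these data known. Genes averaging 1 FPKM or more across 30 libraries were tested with limma 3.58.1 (R 4.3.3, trend) on log2(FPKM + 0.1) in 1 fit of 10 groups, with Benjamini-Hochberg adjusted p under 0.05 as a call. Fold changes on this scale understate the change of low genes. For CYC065, libraries were scaled so that the median log2 of 55 spike-ins was equal. Beside the 10, the text names the 3 genes of each list with the highest mean absolute log2 change over the MYCN lines, the 3 with the highest over CYC065 relative to the median of all genes, and the 3 closest to each member by correlation. NFKBIE with CYC065 was added after its values were seen. Code was tested on simulated data. Read totals are unknown, so no counting intervals were given. Other pseudocounts, filters, scalings, and omitted libraries were tried.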

Additional observations from a re-analysis of the deposited data

Results flagged for a closer look

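In 8 results the change with CYC065 in a MYCN line was unlike that in SH-EP by the interaction term of limma on spike-in scaled values. In WT this was TNFAIP3 (difference of log2 changes 1.43, adjusted p = 0.0341). In T58A it was TNFAIP3 (1.84, adjusted p = 0.0121) and LIF (1.31, adjusted p = 0.0259). In T58A S62A it was CXCL8 (2.31, adjusted p = 1.66e-05), TNFAIP3 (2.23, adjusted p = 0.000909), LIF (1.67, adjusted p = 0.00174), IL6 (3.55, adjusted p = 0.0147), and CCL2 (4.39, adjusted p = 0.0311). Of all tested genes, 1.89% in WT, 2.28% in T58A, and 5.21% in T58A S62A were called higher. TNFAIP3, IL6, and CCL2 passed the filter through their CYC065 libraries, so their calls are descriptions and no support for a direction. The calls of TNFAIP3 in WT and T58A, LIF in T58A, and CCL2 in T58A S62A were lost in fits without 1 library, as described above. In all 8 results the log2 change was higher in the MYCN line, which is not the same as a higher level. Spike-in scaled CXCL8 with CYC065 averaged 73.2 in T58A S62A and 88.3 in SH-EP, and in DMSO 6.85 and 40.8. The 4 comparisons share the SH-EP libraries, so they are not independent.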

How the results depend on the processing

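No paired analysis was possible because the columns carry numbers that do not match the replicate numbers of the labels. The cause of each change below was not tested. Read totals are unknown, and low members (CXCL1, CXCL3, CCL2, IL6, and TNFAIP3) rest on values near 0 in DMSO.

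With the other scaling (spike-ins for lines, as deposited for CYC065), these log2 changes reversed. Against SH-EP they were NFKBIA -0.53 in WT, -1.64 in S62A, and -0.14 in T58A S62A, LIF -1.53 and TNFAIP3 -1.09 in S62A, and against WT, LIF -0.06 in S62A. With CYC065 they were IL6 0.57 and LIF 0.80 in SH-EP, NFKBIA 1.49 in WT, and IL6 1.19 and NFKBIA 1.29 in S62A. With libraries centred on their median they were IL6 0.71, IL11 0.06, and LIF 0.94 in SH-EP, NFKBIA 1.67 in WT, IL6 1.36 and NFKBIA 1.45 in S62A, and IL11 0.04 in T58A S62A. With spike-ins of at least 50 FPKM, LIF in WT was -0.04 and the CXCL8 interaction in S62A -0.02. Leaving out 1 library turned LIF in WT (-0.14, -0.09, and -0.13 without WT DMSO library 1 or 2 or CYC065 library 0), IL6 in S62A (0.36 and 0.11 without DMSO library 1 or CYC065 library 0), and NFKBIA in SH-EP (-0.02, -0.01, and -0.07 without DMSO library 1 or 0 or CYC065 library 0). Their leave-one-out ranges were -0.14 to 0.27, -0.44 to 0.36, and -0.07 to 0.08. None of these 3 had passed the test.

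Counts of members called moved as follows. Against WT in DMSO, T58A went from 5 to 3 with the other scaling or only the groups compared and to 2 with a 1.5-fold minimum, S62A from 2 to 5 with the other scaling and to 1 with the 1.5-fold minimum, and T58A S62A from 1 to 0 with the other scaling or only the groups compared. Against SH-EP, S62A went from 5 to 2 with the 1.5-fold minimum. With CYC065, a filter at 5 FPKM, which leaves fewer members, gave 2 in SH-EP, 3 in WT, 2 in S62A, and 5 in T58A S62A, from 5, 5, 5, and 9. S62A gave 3 with a pseudocount of 1, no filter, or spike-ins of at least 50 FPKM, and WT gave 9 as deposited or median centred. For the interactions, WT went from 1 to 2 with a pseudocount of 0.01 or only the groups compared, 0 with no filter or spike-ins of at least 50 FPKM, and 5 as deposited or median centred. T58A went from 2 to 1 with no filter or spike-ins of at least 50 FPKM, 4 median centred, and 0 with only the groups compared. S62A went from 0 to 1 with a pseudocount of 1 or only the groups compared, and 3 as deposited or median centred. T58A S62A went from 5 to 3 with no filter, a filter at 5 FPKM, or only the groups compared, and 2 with spike-ins of at least 50 FPKM.

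Leaving out each library in turn gave these counts. With CYC065 there were 4 to 5 in SH-EP, 5 in WT, 5 to 7 in T58A, 3 to 5 in S62A (3 without S62A DMSO or CYC065 library 1), and 9 in T58A S62A. Against SH-EP there were 4 to 6 in WT, 5 to 7 in T58A, 4 to 5 in S62A, and 6 in T58A S62A. Against WT there were 3 to 5 in T58A (3 without WT DMSO library 1), 2 to 3 in S62A, and 1 to 2 in T58A S62A (2 without its DMSO library 1). The interactions gave 0 to 2 in WT, 0 to 3 in T58A, 0 to 1 in S62A, and 4 to 5 in T58A S62A. In WT there were 2 without WT DMSO library 1 or SH-EP CYC065 library 2, and 0 without WT CYC065 library 1 or 2, any SH-EP DMSO library, or SH-EP CYC065 library 0 or 1. In T58A there was 1 without T58A DMSO library 1, T58A CYC065 library 0 or 2, or any SH-EP DMSO library, and 0 without SH-EP CYC065 library 2. In S62A there was 1 without SH-EP DMSO library 0. A group left with 2 libraries was assumed to vary like the others. Of the values for single genes, leave-one-out fits kept 533 on their side of the threshold, with 47 weaker, 6 stronger, and 8 reversed. CCL2 in T58A against SH-EP read 0.79 with a pseudocount of 1 (adjusted p = 0.06).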
